A study of Mus musculus with 4 samples.

Results

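The heat shock proteins, chaperonins and co-chaperones measured here are a set of 111 protein-coding genes, chosen by gene symbol from the 52636 genes of a mouse RNA-seq count table. The symbols cover the HSP70 and HSP110 family, HSP90, the J-domain proteins, small heat shock proteins, the CCT chaperonin and prefoldin, the mitochondrial chaperones, BAG proteins, co-chaperones of HSP90 and HSP70, Hsf1 and Hsf2, and the chaperones and stress sensors of the endoplasmic reticulum (ER). The rule reads no expression value, but it was set with earlier results of these data known. Of the 111 genes, 98 reached a scaled count (CPM) of 1 in at least 1 library and are described as kept members, and 13 did not. Myc-CaP is a prostate cancer cell line established from the FVB Hi-Myc transgenic mouse, in which a MYC transgene is driven by a prostate promoter. The cells had been stably transfected with short hairpins targeting Ptk2, which encodes focal adhesion kinase (FAK), or with a negative control hairpin; these lines are called shFAK and shNC. The 4 groups were shFAK with norepinephrine, shFAK with vehicle, shNC with norepinephrine and shNC with vehicle, where norepinephrine was given at 10 µM for 24 h. Each group was 1 library, so no difference between libraries has a replicate check, and whether a line was 1 clone or a pool is not given in the sources used here.

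Chaperones hold unfolded proteins and help them reach their folded state. HSP70 binds short exposed stretches of a protein with the help of J-domain proteins, which start its ATP cycle, and of nucleotide exchange factors such as HSP110 and the BAG proteins. HSP90 acts later, on nearly folded clients such as kinases and steroid receptors, the androgen receptor of prostate cells among them, and co-chaperones carry clients from HSP70 to HSP90. The CCT ring folds actin and tubulin, which prefoldin delivers to it. In the ER a separate set of chaperones folds secreted and membrane proteins, and the sensors IRE1 (Ern1) and ATF6, with the transcription factor XBP1, raise their transcription when unfolded proteins build up, as HSF1 does for the cytosolic set.

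The libraries held 23410486 counts in shFAK with norepinephrine, 26016936 in shFAK with vehicle, 27598343 in shNC with norepinephrine and 29948640 in shNC with vehicle. Ptk2, the targeted gene, had 1248 counts with norepinephrine and 1294 counts with vehicle in shFAK, against 3158 counts with norepinephrine and 3547 counts with vehicle in shNC, so both shFAK libraries were low. The androgen receptor gene had 1843 CPM with norepinephrine and 2133 CPM with vehicle in shFAK, against 1138 CPM with norepinephrine and 1515 CPM with vehicle in shNC. Of other luminal prostate markers, Hoxb13 was at 37.0 to 49.6 CPM, while Epcam, Cdh1 and Krt18 had at most 15 counts in a library. Summed leukocyte markers were at no more than 0.0751 CPM and endothelial markers at no more than 0.188 CPM. Among fibroblast markers Dcn and Lum were at 0, and Pdgfra had 12.5 CPM with norepinephrine and 12.3 CPM with vehicle in shFAK, against 7.44 CPM with norepinephrine and 9.33 CPM with vehicle in shNC. Mitochondrially encoded genes took 1.34% and 1.42% of counts in shFAK with norepinephrine and vehicle, against 1.15% and 1.22% in shNC with norepinephrine and vehicle. The part of these shifts in the results below was not tested.

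Ratios are log2 ratios of CPM, scaled by effective library sizes (TMM), and the intervals beside them are exact 99% counting intervals. They cover counting error only and not the variation between cultures. A call means an adjusted p under 0.05 in an additive model of hairpin and treatment over all 4 libraries, fitted to 12351 genes with the quasi-likelihood test of edgeR and Benjamini-Hochberg adjustment. "Rose" and "fell" are used for such calls. The additive model has 1 residual degree of freedom and takes a gene's spread almost wholly from other genes, so a small adjusted p says little about whether a new pair of lines would differ.

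Members as a whole were a little lower in shFAK. Together the 98 kept members took 2.68% of the counts in shFAK with norepinephrine and 2.72% in shFAK with vehicle, against 2.88% in shNC with norepinephrine and 2.89% in shNC with vehicle. Their summed level in shFAK was 87.6% of shNC with norepinephrine (87.2% to 88.0%) and 91.4% with vehicle (91.0% to 91.7%). The additive model called 35 members lower and 12 higher in shFAK, and 51 were not called. Of all 12351 genes, 16.2% were called lower and 19.5% higher. In both pairs of libraries the 99% interval lay below 0 for 40 members and above 0 for 13, against 16.6% and 17% of all genes. With library size alone these were 31 and 21 members, against 11.7% and 22.4% of all genes. The median log2 ratio of members was -0.14 with norepinephrine and -0.055 with vehicle, where all genes had 0.024 and 0.0034. Scaling by library size alone moved the split of calls to 23 lower and 18 higher, where 9.41% of all genes were lower and 23% higher, and the members' median with norepinephrine to -0.051. DESeq2's Wald test called 19 lower and 5 higher, where all genes had 6.18% and 7.74%. A test against 1.2-fold in edgeR called 3 lower and 2 higher, where all genes had 2.85% and 6.44%, so the share lower was near that of all genes. After a spline on gene length and transcript GC was removed from each library (the length and GC correction), 30 were called lower and 9 higher, of which 25 and 6 were shared with the first fit, and all genes had 15.7% lower and 15.4% higher.

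The differences were small in size. A 2-fold change with an interval that left out 0 was reached by 1 member, Dnajb13, in both pairs, where 3.25% of all genes reached it with norepinephrine and 1.88% with vehicle. Dnajb13, a testis-type J-domain protein, had 18 counts with norepinephrine and 21 counts with vehicle in shFAK, against 43 counts with norepinephrine and 54 counts with vehicle in shNC. Its log2 ratios were -1.03 with norepinephrine (-2.27 to -0.049) and -1.13 with vehicle (-2.26 to -0.24). The gene overlaps Ucp2 on the other strand and the libraries did not mark strand, so its few counts cannot be told from those of its neighbour.

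**Figure D1:**
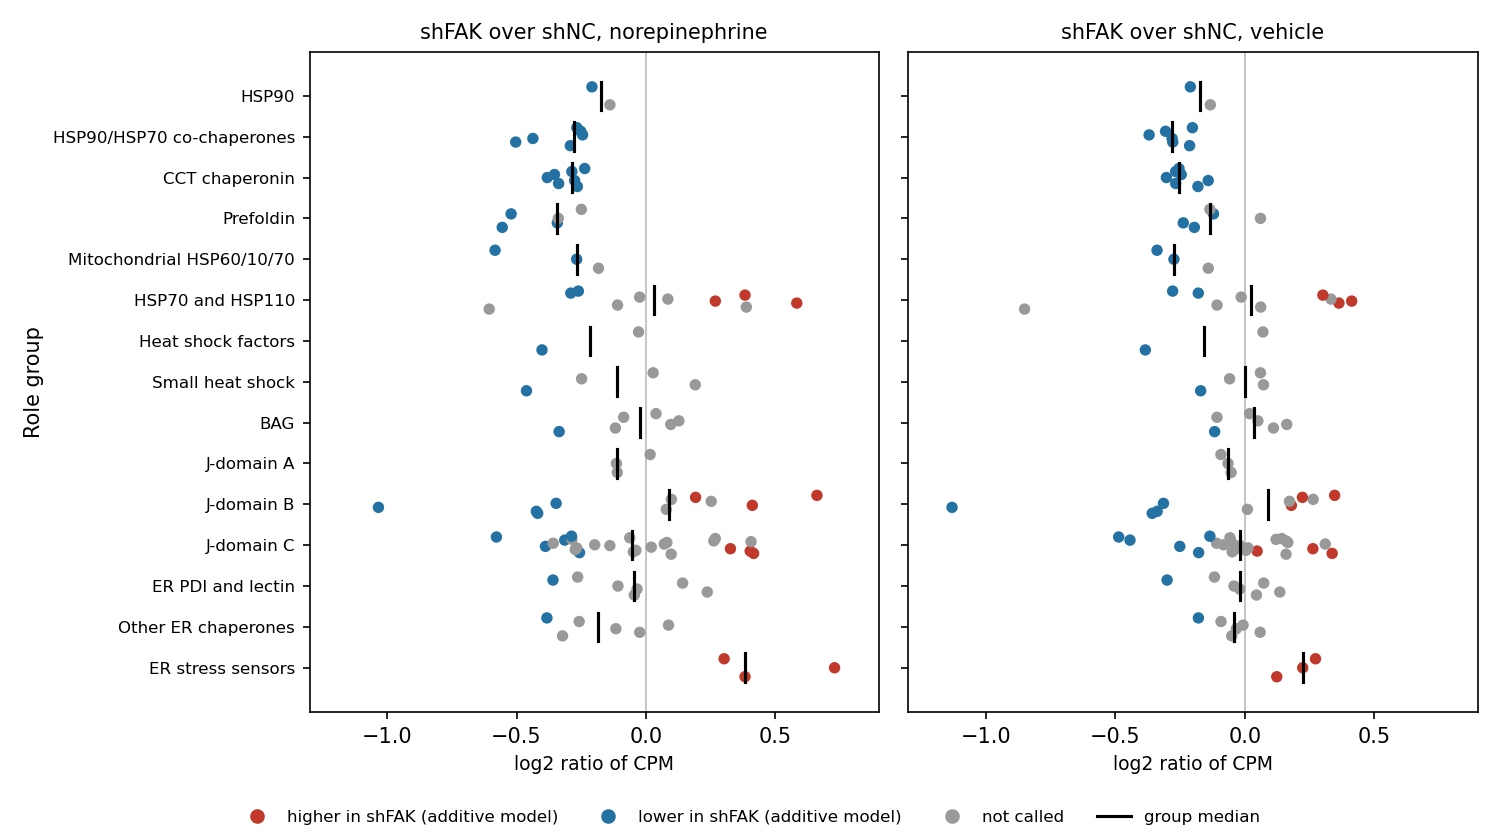
Log2 ratio of CPM, shFAK over shNC, for the 98 kept members in 15 role groups (rows), in the norepinephrine pair (left) and the vehicle pair (right). Each point is a gene, coloured by its call in the additive model, and black bars are group medians. All 7 CCT subunits and all 6 co-chaperones lie left of 0 in both panels. The 3 genes of the ER stress sensor group (Ern1, Atf6 and the transcription factor gene Xbp1) lie right of 0 in both.

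The HSP70, HSP90, mitochondrial, CCT, prefoldin and co-chaperone groups together held 33 kept members, of which 21 fell and 3 rose. Of all genes 16.2% were called lower and 19.5% higher. After the length and GC correction 18 of the 33 were called lower and 2 higher, where all genes had 15.7% and 15.4%. The other role groups lay outside this pool, among them the J-domain proteins, of which 9 of 37 fell and 6 rose. The pool was not among the planned groups, and its counts are a description only. Every kept CCT subunit fell in shFAK, 7 of 7. CCT is a ring of 8 kinds of subunit in each layer. Cct6a, the eighth, matches the symbols but is not listed as protein-coding, and so lies outside the set. Cct5 (epsilon subunit; ENSMUSG00000022234, chromosome 15, 31590800 to 31601847, mm10) had 533 CPM with norepinephrine and 528 CPM with vehicle in shFAK, against 694 CPM with norepinephrine and 651 CPM with vehicle in shNC. Its log2 ratios were -0.38 with norepinephrine (-0.42 to -0.34) and -0.30 with vehicle (-0.34 to -0.26), with an additive estimate of -0.34 (SE 0.084, adjusted p = 0.00034) in edgeR's quasi-likelihood fit. Cct3, the most abundant subunit per length, had 656 CPM with norepinephrine and 669 CPM with vehicle in shFAK, against 828 CPM with norepinephrine and 805 CPM with vehicle in shNC. In every subunit both shFAK libraries were below both shNC libraries.

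The remaining subunits lay close together. Cct7 had log2 ratios of -0.35 with norepinephrine and -0.25 with vehicle, Cct8 of -0.29 with norepinephrine and -0.27 with vehicle, Cct2 of -0.26 with norepinephrine and -0.18 with vehicle, Cct4 of -0.28 with norepinephrine and -0.14 with vehicle and Tcp1, the alpha subunit, of -0.24 with norepinephrine and -0.25 with vehicle. Summed over the 7 genes, CCT in shFAK stood at 80.5% of shNC with norepinephrine (79.6% to 81.4%) and 84.5% with vehicle (83.6% to 85.4%). Cct6a had 387 CPM with norepinephrine and 409.9 CPM with vehicle in shFAK, against 437 CPM with norepinephrine and 468 CPM with vehicle in shNC, and was not called (adjusted p = 0.0798, edgeR). Cct6b, a testis-type subunit, had at most 4 counts in a library. Per kilobase of transcript the mean levels of the 7 subunits ran from 158 CPM for Tcp1 to 374 CPM for Cct3. After the length and GC correction, 6 of the 7 stayed called lower, and Cct2 had an adjusted p of 0.0612 in edgeR.

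All 6 co-chaperones in the set fell in shFAK, where 16.2% of all genes were called lower. Cdc37, which loads protein kinases onto HSP90, had 367 CPM with norepinephrine and 361 CPM with vehicle in shFAK, against 520.0 CPM with norepinephrine and 438 CPM with vehicle in shNC. The log2 ratios of Cdc37 were -0.50 with norepinephrine (-0.55 to -0.45) and -0.28 with vehicle (-0.33 to -0.23), an additive estimate of -0.39 (SE 0.085, adjusted p = 4.9e-05) in edgeR. Fkbp4, the immunophilin FKBP52 that serves steroid receptors, had 509.7 CPM with norepinephrine and 506 CPM with vehicle in shFAK, against 689.9 CPM with norepinephrine and 614 CPM with vehicle in shNC, an additive estimate of -0.36 (SE 0.084, adjusted p = 0.00017). Ptges3 (p23), which stabilises the closed form of HSP90, had 170.5 CPM with norepinephrine and 158 CPM with vehicle in shFAK, against 202 CPM with norepinephrine and 204 CPM with vehicle in shNC. Here the vehicle pair showed the greater difference, with log2 ratios of -0.24 with norepinephrine and -0.37 with vehicle. St13 (HIP), an HSP70 partner, had ratios of -0.25 with norepinephrine and -0.31 with vehicle, Ahsa1 (AHA1), which speeds the HSP90 ATPase, of -0.29 with norepinephrine and -0.21 with vehicle, and Stip1 (HOP), which bridges HSP70 and HSP90, of -0.27 with norepinephrine and -0.20 with vehicle. Stip1 lost its call after the length and GC correction (adjusted p = 0.117, edgeR), where 15.7% of all genes were called lower. In the test against 1.2-fold 3 of all 98 members were called lower, so not all 6 co-chaperones kept the call there. The summed level of the 6 in shFAK was 77.8% of shNC with norepinephrine and 83.2% with vehicle.

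The ratios of HSP90 itself were nearer to 0. Hsp90ab1, the constitutive form and per length the most abundant member at 1394 CPM per kilobase, had 3227 CPM with norepinephrine and 3291 CPM with vehicle in shFAK, against 3728 CPM with norepinephrine and 3807 CPM with vehicle in shNC. It fell, with an additive estimate of -0.21 (SE 0.072, adjusted p = 0.0138) in edgeR. Hsp90aa1, the inducible form, had 1376 CPM with norepinephrine and 1588 CPM with vehicle in shFAK, against 1515 CPM with norepinephrine and 1741 CPM with vehicle in shNC. It was not called (adjusted p = 0.165), although both intervals lay below 0, with ratios of -0.14 with norepinephrine and -0.13 with vehicle. After the length and GC correction it was called lower (adjusted p = 0.0319, edgeR). It has 3 near-identical pseudogene copies in the annotation, so its counts are less certain.

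The mitochondrial matrix chaperones were lower in each pair. Hspe1 (HSP10), the lid of the HSP60 chamber, had 448 CPM with norepinephrine and 438 CPM with vehicle in shFAK, against 671 CPM with norepinephrine and 554 CPM with vehicle in shNC. Hspe1 ratios were -0.58 with norepinephrine (-0.63 to -0.54) and -0.34 with vehicle (-0.38 to -0.29), an additive estimate of -0.46 (SE 0.084, adjusted p = 9.3e-07) in edgeR. Its partner Hspd1 (HSP60) lies on the other strand and runs the other way, and the annotated 5′ ends of both genes overlap. The libraries did not mark strand, so reads from that overlap cannot be told apart. Hspd1 had 965 CPM with norepinephrine and 1029 CPM with vehicle in shFAK, against 1162 CPM with norepinephrine and 1244 CPM with vehicle in shNC, with ratios of -0.27 with norepinephrine and -0.27 with vehicle. Hspd1 thus fell by the same amount in both pairs, while the Hspe1 difference was greater with norepinephrine. Hspa9 (mtHSP70, mortalin) had ratios of -0.18 with norepinephrine and -0.14 with vehicle and was not called (adjusted p = 0.117), and it was called lower after the correction (adjusted p = 0.0283, edgeR). Hspe1, Hspd1 and Hspa8 each have near-identical copies in the annotation.

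**Figure D2:**
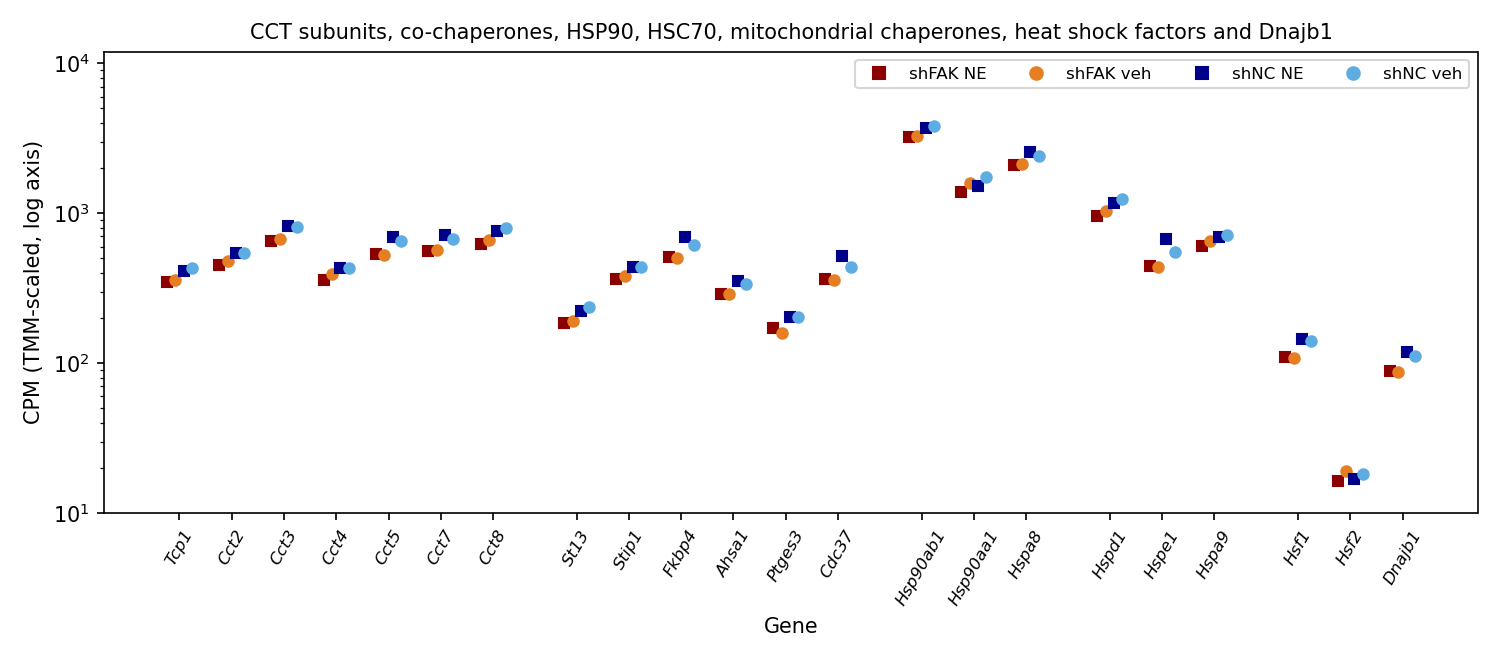
CPM (log axis) of the CCT subunits, co-chaperones, HSP90, HSC70 (Hspa8), mitochondrial chaperones, heat shock factors and Dnajb1 in each of the 4 libraries (squares norepinephrine, NE; circles vehicle, veh). For each gene except Hsp90aa1 and Hsf2 both shFAK points lie below both shNC points, as with Cdc37 at 367 and 361 CPM in shFAK, against 520 and 438 CPM in shNC.

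Hsf1, the factor known to drive heat-induced transcription of the cytosolic set, fell as well. The gene (ENSMUSG00000022556, chromosome 15, 76477445 to 76500972, mm10) had 109 CPM with norepinephrine and 108 CPM with vehicle in shFAK, against 144 CPM with norepinephrine and 141 CPM with vehicle in shNC. Its log2 ratios were -0.40 with norepinephrine (-0.50 to -0.31) and -0.38 with vehicle (-0.48 to -0.29), an additive estimate of -0.39 (SE 0.088, adjusted p = 7.9e-05) in edgeR. Both shFAK libraries were below both shNC libraries, by nearly the same amount under each treatment. Hsf2, a second family member, had 16.4 CPM with norepinephrine and 19.2 CPM with vehicle in shFAK, against 16.8 CPM with norepinephrine and 18.3 CPM with vehicle in shNC, and its libraries overlapped. Dnajb1 (HSP40), a J-domain protein known as a target of HSF1, had 88.8 CPM with norepinephrine and 87.3 CPM with vehicle in shFAK, against 119 CPM with norepinephrine and 112 CPM with vehicle in shNC, an additive estimate of -0.39 (SE 0.089, adjusted p = 0.00012).

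The HSP70 and HSP110 family went in both directions. Of 10 kept genes 2 fell, 3 rose and 5 were not called, where 16.2% of all genes fell and 19.5% rose. Nothing is read from these counts. Hspa8 (HSC70), the constitutive cytosolic HSP70, had 2111 CPM with norepinephrine and 2122 CPM with vehicle in shFAK, against 2582 CPM with norepinephrine and 2404 CPM with vehicle in shNC. It fell, with log2 ratios of -0.29 with norepinephrine and -0.18 with vehicle. Hsph1 (HSP110), its nucleotide exchange factor, had 182 CPM with norepinephrine and 213 CPM with vehicle in shFAK, against 218 CPM with norepinephrine and 258 CPM with vehicle in shNC, and fell with ratios of -0.26 with norepinephrine and -0.28 with vehicle. Hspa4 (APG-2), a sister exchange factor, had ratios of -0.024 with norepinephrine and -0.014 with vehicle. Its relative Hspa4l rose, with 213 CPM with norepinephrine and 241 CPM with vehicle in shFAK, against 164 CPM with norepinephrine and 196 CPM with vehicle in shNC, and lost its call after the length and GC correction (adjusted p = 0.225, edgeR).

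The stress-inducible HSP70 genes were higher in shFAK, opposite to Hspa8 and Hsf1. Hspa1b had 212 CPM with norepinephrine and 226 CPM with vehicle in shFAK, against 176 CPM with norepinephrine and 169.5 CPM with vehicle in shNC. Hspa1a had 38.8 CPM with norepinephrine and 30.8 CPM with vehicle in shFAK, against 25.9 CPM with norepinephrine and 23.9 CPM with vehicle in shNC. In both genes the shFAK libraries were above the shNC libraries, and the additive estimates in edgeR were 0.48 (SE 0.10, adjusted p = 1e-05) for Hspa1a and 0.34 (SE 0.087, adjusted p = 0.00064) for Hspa1b. The 2 genes are near-identical copies on chromosome 17, and the treatment of reads that map to both is not given in the sources used here. Their summed counts do not depend on that split between them, and gave 251 CPM with norepinephrine and 257 CPM with vehicle in shFAK, against 202 CPM with norepinephrine and 193 CPM with vehicle in shNC. The sum in shFAK was 124% of shNC with norepinephrine (118% to 130.4%) and 133% with vehicle (127% to 139%). Hspa1a supplied 15.4% of the sum in shFAK with norepinephrine and 12.0% to 12.8% in the other libraries.

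Heat shock factors bind inverted repeats of a short unit, spelled GAANNTTC or TTCNNGAA for 2 units. The RefSeq promoter table (build GRCm38.p6, 250 bases before to 50 after the start) held 78 of the 98 kept members and 8526 of 10818 kept protein-coding genes. Because 79.6% of members is under the 80% needed for a check over a set, the shares given are a description of the matched promoters, and the comparison between members and other genes is void. The 2-unit form was found on either strand in 13 of 78 member promoters (16.7%) and in 11.3% of all 8526, and the form with 1 more inverted unit in 3 of 78 (3.85%) and in 0.399% of all. Those 3 were Hspe1, Hsph1 and Dnajb6. They are printed because they hold the longest run of units and still moved in different directions: Hspe1 and Hsph1 fell in shFAK, while Dnajb6 rose (0.21, SE 0.086, adjusted p = 0.0465, edgeR), a call it lost after the correction (adjusted p = 0.138). The pair Hspa1a and Hspa1b follows, to show how alike the copies are upstream: they share 296 of 300 bases and the same 2-unit element. Capitals mark the unit letters that match. The windows are chr1:55087898-55088197 on the plus strand (Hspe1), chr5:149636287-149636586 on the minus strand (Hsph1), chr5:29735648-29735947 on the plus strand (Dnajb6), chr17:34972107-34972406 on the minus strand (Hspa1a) and chr17:34959189-34959488 on the minus strand (Hspa1b), each written 5′ to 3′ on the gene's strand.
Hspe1: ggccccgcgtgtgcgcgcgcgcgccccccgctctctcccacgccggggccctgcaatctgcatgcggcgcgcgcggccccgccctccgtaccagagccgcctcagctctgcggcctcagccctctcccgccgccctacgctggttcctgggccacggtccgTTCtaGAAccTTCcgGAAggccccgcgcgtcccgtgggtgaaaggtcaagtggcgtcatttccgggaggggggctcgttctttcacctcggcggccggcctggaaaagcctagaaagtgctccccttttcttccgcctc
Hsph1: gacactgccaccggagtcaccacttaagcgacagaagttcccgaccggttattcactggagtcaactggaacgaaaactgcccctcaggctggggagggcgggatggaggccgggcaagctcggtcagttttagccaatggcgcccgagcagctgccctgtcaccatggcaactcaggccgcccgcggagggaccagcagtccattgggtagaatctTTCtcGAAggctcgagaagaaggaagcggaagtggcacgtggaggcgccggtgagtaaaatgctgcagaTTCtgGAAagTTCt
Dnajb6: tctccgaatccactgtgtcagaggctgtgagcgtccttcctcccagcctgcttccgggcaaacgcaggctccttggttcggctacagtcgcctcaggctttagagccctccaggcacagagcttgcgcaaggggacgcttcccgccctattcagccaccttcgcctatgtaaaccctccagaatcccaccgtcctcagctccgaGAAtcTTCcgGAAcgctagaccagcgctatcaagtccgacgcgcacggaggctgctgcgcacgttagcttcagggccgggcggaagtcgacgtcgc
Hspa1a: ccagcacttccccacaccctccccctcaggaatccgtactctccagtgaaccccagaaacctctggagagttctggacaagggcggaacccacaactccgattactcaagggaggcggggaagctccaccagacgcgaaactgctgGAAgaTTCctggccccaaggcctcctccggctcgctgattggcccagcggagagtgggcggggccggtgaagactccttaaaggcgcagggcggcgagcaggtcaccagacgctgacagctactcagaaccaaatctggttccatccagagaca
Hspa1b: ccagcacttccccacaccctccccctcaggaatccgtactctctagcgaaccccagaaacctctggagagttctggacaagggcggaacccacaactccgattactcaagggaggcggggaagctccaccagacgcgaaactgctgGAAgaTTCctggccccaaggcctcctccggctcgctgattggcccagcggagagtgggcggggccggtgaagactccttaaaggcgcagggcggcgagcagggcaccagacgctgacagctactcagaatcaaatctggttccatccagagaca

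The same 2-unit letters stood in the promoters of Cct5, Cdc37 and Fkbp4, which fell, and of Hspb1, which fell in the first fit but not after the correction. They also stood in those of Dnajc10, which rose, and of Dnaja1, Bag3 and Dnajc27, which were not called in the first fit. The element in Hspe1 began 89 bases before the start and ran through 4 units in a row. A match in this window is a description of the letters and not a binding site.

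Prefoldin, the partner of CCT, was lower in shFAK chiefly with norepinephrine. Pfdn1 had 39.3 CPM with norepinephrine and 39.5 CPM with vehicle in shFAK, against 57.8 CPM with norepinephrine and 45.2 CPM with vehicle in shNC, Pfdn5 had 52.6 CPM with norepinephrine and 53.6 CPM with vehicle in shFAK, against 75.5 CPM with norepinephrine and 58.3 CPM with vehicle in shNC, and Pfdn2 had 55.7 CPM with norepinephrine and 52.8 CPM with vehicle in shFAK, against 70.7 CPM with norepinephrine and 62.3 CPM with vehicle in shNC. These 3 fell, and Pfdn4 and Pfdn6 were not called, where 16.2% of all genes fell. The summed level of the 5 subunits in shFAK was 76.7% of shNC with norepinephrine (73.5% to 79.9%) and 90.8% with vehicle (87.0% to 94.7%). After the length and GC correction these 3 lost the call (adjusted p = 0.0557 for Pfdn2, 0.0783 for Pfdn1 and 0.154 for Pfdn5, edgeR), and prefoldin genes are among the shortest in the set. At 34.8 to 110.2 CPM per kilobase, prefoldin subunits were below every CCT subunit in level.

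Small heat shock proteins hold unfolding proteins without using ATP. Hspb1 (HSP25 in mouse, HSP27 in human), the dominant one, had 788 CPM with norepinephrine and 794 CPM with vehicle in shFAK, against 1085 CPM with norepinephrine and 893 CPM with vehicle in shNC. It fell in the additive model (-0.32, SE 0.082, adjusted p = 0.00073, edgeR) but not after the length and GC correction (adjusted p = 0.255), where its log2 ratios were -0.20 with norepinephrine and 0.0091 with vehicle. The shNC library with norepinephrine stood above the other 3. Hspb6 had 27.4 CPM with norepinephrine and 26.2 CPM with vehicle in shFAK, against 32.6 CPM with norepinephrine and 27.3 CPM with vehicle in shNC, and was not called. Hspb2, Hspb3, Hspb8 and Hspb9 did not reach 1 CPM.

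Of the 6 BAG proteins, several of them exchange factors of HSP70, only Bag1 was called. It was lower (-0.23, SE 0.087, adjusted p = 0.0309, edgeR) and lost that call after the correction (adjusted p = 0.667). With 16.2% of all genes called lower and 19.5% higher, nothing is read from this count. Bag6, the most abundant, had 297 CPM with norepinephrine and 290.4 CPM with vehicle in shFAK, against 289 CPM with norepinephrine and 287 CPM with vehicle in shNC, close to the same level in every library. Bag3, a stress-inducible member, had 71.8 CPM with norepinephrine and 69.0 CPM with vehicle in shFAK, against 67.2 CPM with norepinephrine and 61.6 CPM with vehicle in shNC. It was not called, and was called higher after the correction (adjusted p = 0.0165, edgeR).

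The J-domain proteins went in both directions. Of 37 kept genes 9 fell, 6 rose and 22 were not called, where 16.2% of all genes fell and 19.5% rose, and nothing is read from these counts. The median log2 ratio was -0.048 with norepinephrine and -0.019 with vehicle. Dnajc8, a splicing-associated member, had the largest fall among J-domain genes averaging 5 CPM or more, with 94.0 CPM with norepinephrine and 91.1 CPM with vehicle in shFAK, against 140.3 CPM with norepinephrine and 128 CPM with vehicle in shNC. The ratios were -0.58 with norepinephrine (-0.68 to -0.48) and -0.49 with vehicle (-0.59 to -0.39), an additive estimate of -0.53 (SE 0.089, adjusted p = 5.2e-08) in edgeR. Dnajb11 (ERdj3), an ER-resident partner of BiP, had 134 CPM with norepinephrine and 132 CPM with vehicle in shFAK, against 179.7 CPM with norepinephrine and 167 CPM with vehicle in shNC, and fell (-0.38, SE 0.088, adjusted p = 0.00013). Dnajc19, of the mitochondrial import motor, had ratios of -0.39 with norepinephrine and -0.25 with vehicle, Dnajc11, of the inner membrane organising complex, of -0.26 with norepinephrine and -0.18 with vehicle, and the neuronal-type Dnajb2 of -0.35 with norepinephrine and -0.31 with vehicle.

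The J-domain genes that rose were a mixed group. Dnajc10 (ERdj5), an ER reductase, had 167 CPM with norepinephrine and 175 CPM with vehicle in shFAK, against 125 CPM with norepinephrine and 139 CPM with vehicle in shNC, an additive estimate of 0.38 (SE 0.088, adjusted p = 0.00015) in edgeR. Dnajb9 (ERdj4), a known target of XBP1, had 9.96 CPM with norepinephrine and 10.0 CPM with vehicle in shFAK, against 6.27 CPM with norepinephrine and 7.84 CPM with vehicle in shNC, with ratios of 0.66 with norepinephrine (0.29 to 1.05) and 0.35 with vehicle (0.011 to 0.69). These 2 stayed called after the correction. Dnajb6, Dnajb14, Dnajc13 and Dnajc16 rose in the additive model and lost the call after the correction. Dnajc13, an endosomal protein with one of the longest transcripts in the set, had ratios of 0.40 with norepinephrine and 0.048 with vehicle, and 0.12 with norepinephrine and -0.082 with vehicle after the correction. Dnaja1, Dnaja2 and Dnaja3, the class A co-chaperones of HSP70, were not called, with ratios from -0.11 to 0.017 with norepinephrine and from -0.092 to -0.053 with vehicle. After the correction Dnaja1 was called lower (adjusted p = 0.00655, edgeR).

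Ern1, Atf6 and Xbp1, grouped here as ER stress sensors, rose in the first fit. Of these, Ern1 and Atf6 encode sensors and Xbp1 a transcription factor. Ern1 (IRE1 alpha; ENSMUSG00000020715, chromosome 11, 106394650 to 106487852, mm10), the sensor kinase and nuclease, had 71.8 CPM with norepinephrine and 70.2 CPM with vehicle in shFAK, against 43.3 CPM with norepinephrine and 60.1 CPM with vehicle in shNC. This gave log2 ratios of 0.73 with norepinephrine (0.59 to 0.87) and 0.22 with vehicle (0.10 to 0.35), an additive estimate of 0.47 (SE 0.089, adjusted p = 1.9e-06) in edgeR. The low value was that of shNC with norepinephrine. Xbp1, the factor that IRE1 activates by splicing, had 76.6 CPM with norepinephrine and 74.7 CPM with vehicle in shFAK, against 62.1 CPM with norepinephrine and 61.8 CPM with vehicle in shNC, an additive estimate of 0.29 (SE 0.089, adjusted p = 0.00575). The counts do not separate its spliced and unspliced forms. Atf6 had 29.5 CPM with norepinephrine and 29.7 CPM with vehicle in shFAK, against 22.6 CPM with norepinephrine and 27.2 CPM with vehicle in shNC, and rose (0.25, SE 0.10, adjusted p = 0.0310), losing that call after the correction (adjusted p = 0.417, edgeR). Ern1 and Xbp1 kept theirs.

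**Figure D3:**
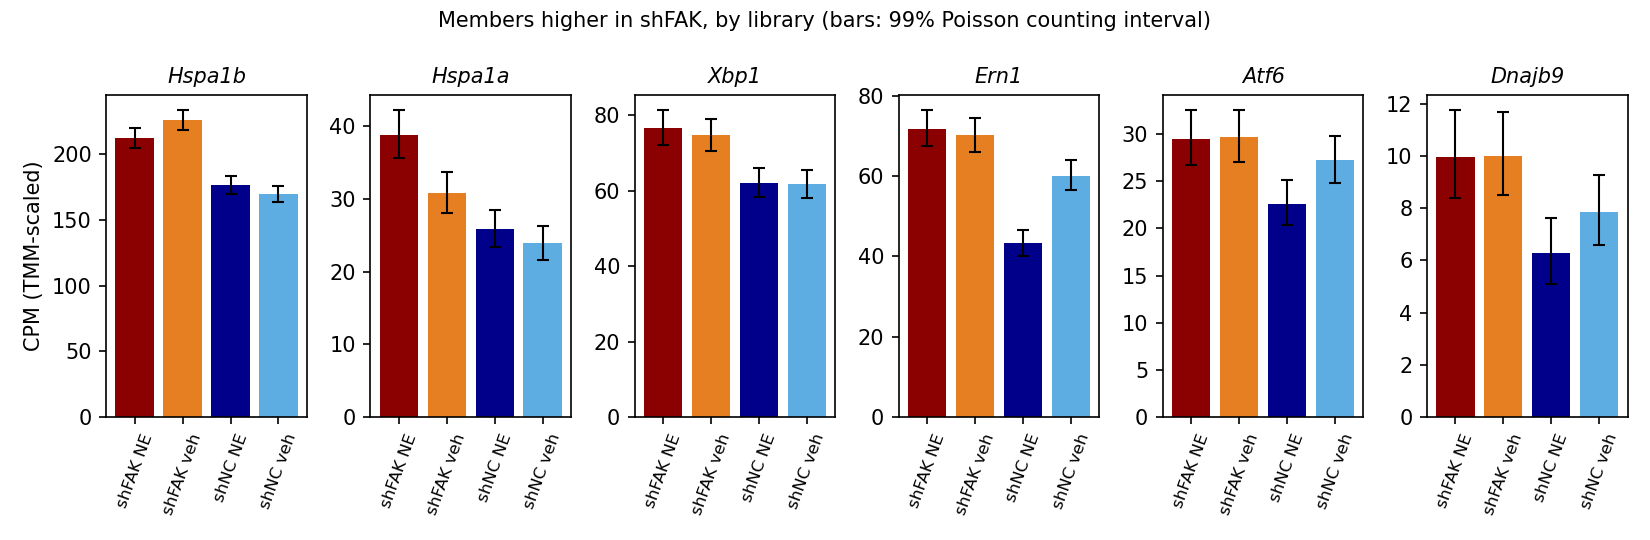
CPM of Hspa1b, Hspa1a, Xbp1, Ern1, Atf6 and Dnajb9 in the 4 libraries (bars), with exact 99% Poisson intervals of the counts (error bars). In each gene both shFAK libraries are above both shNC libraries, and for Ern1 the shNC library with norepinephrine, at 43.3 CPM, is the lowest.

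Among the 13 chaperones of the ER lumen and membrane, 2 fell and 11 were not called. The shares over all genes were 16.2% lower and 19.5% higher, so nothing is read from these counts. After the length and GC correction 2 of the 13 were called lower and 1 higher, where all genes had 15.7% and 15.4%. BiP (Hspa5), the ER HSP70, had 967 CPM with norepinephrine and 943 CPM with vehicle in shFAK, against 1048 CPM with norepinephrine and 964 CPM with vehicle in shNC. Its log2 ratios were -0.12 with norepinephrine and -0.032 with vehicle, the vehicle ratio turning to 0.012 when libraries were scaled by size alone, and it was not called (adjusted p = 0.504, edgeR). GRP94 (Hsp90b1), the ER HSP90, had 631 CPM with norepinephrine and 658 CPM with vehicle in shFAK, against 642 CPM with norepinephrine and 631 CPM with vehicle in shNC, with ratios of -0.024 with norepinephrine and 0.06 with vehicle. The disulfide isomerase P4hb had ratios of -0.034 with norepinephrine and -0.019 with vehicle and the lectin chaperone Calr of -0.045 with norepinephrine and 0.045 with vehicle. Canx, the membrane-bound lectin, had 662 CPM with norepinephrine and 678 CPM with vehicle in shFAK, against 561 CPM with norepinephrine and 617 CPM with vehicle in shNC, and both its intervals lay above 0, but it was not called (adjusted p = 0.0661, edgeR). The 2 that fell were Pdia5 (-0.33, SE 0.088, adjusted p = 0.00105) and Sdf2l1 (-0.28, SE 0.088, adjusted p = 0.00630), and Sdf2l1 lost the call after the correction (adjusted p = 0.453). Summed, the 6 non-isomerase ER chaperones in shFAK were at 93.1% of shNC with norepinephrine and 99.1% with vehicle, and the 7 isomerases and lectins at 97.4% and 100.4%.

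ATF6 and its relatives act through the ER stress element, CCAAT and CCACG set 9 bases apart. The exact letters were found on either strand in 7 of the 78 matched member promoters (8.97%) and in 14 of all 8526 (0.164%), with the same limit on comparison as above. The 7 were Hspa5, Hsp90b1, Calr, Canx, Pdia6, Creld2 and Dnajc3, and none of them was called between the hairpins in the first fit, while Pdia6 was called lower after the correction (adjusted p = 0.0221, edgeR). Hsp90b1 held 2 copies. The UPR element, TGACGTGG, stood in 1 member promoter (1.28%), that of Dnajc25, and in 0.798% of all. The promoters of Hspa5, Hsp90b1 and Canx are printed because they carry this shared element in ER chaperone genes that were not called, with the CCAAT and CCACG letters in capitals (as ATTGG and CGTGG where the element lies on the other strand). They are chr2:34771840-34772139 on the plus strand (Hspa5), chr10:86705395-86705694 on the minus strand (Hsp90b1) and chr11:50325624-50325923 on the minus strand (Canx), in RefSeq's GRCm38.p6 table.
Hspa5: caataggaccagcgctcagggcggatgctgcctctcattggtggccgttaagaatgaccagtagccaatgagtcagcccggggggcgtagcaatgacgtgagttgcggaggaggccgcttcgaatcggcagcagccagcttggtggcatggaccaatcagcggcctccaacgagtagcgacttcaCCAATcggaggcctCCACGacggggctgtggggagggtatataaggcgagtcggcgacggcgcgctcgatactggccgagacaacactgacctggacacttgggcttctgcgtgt
Hsp90b1: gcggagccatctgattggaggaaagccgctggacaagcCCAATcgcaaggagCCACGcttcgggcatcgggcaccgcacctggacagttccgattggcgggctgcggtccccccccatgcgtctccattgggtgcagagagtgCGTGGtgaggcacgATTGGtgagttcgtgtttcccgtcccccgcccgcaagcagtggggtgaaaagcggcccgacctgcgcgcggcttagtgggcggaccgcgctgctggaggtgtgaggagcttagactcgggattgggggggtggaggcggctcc
Canx: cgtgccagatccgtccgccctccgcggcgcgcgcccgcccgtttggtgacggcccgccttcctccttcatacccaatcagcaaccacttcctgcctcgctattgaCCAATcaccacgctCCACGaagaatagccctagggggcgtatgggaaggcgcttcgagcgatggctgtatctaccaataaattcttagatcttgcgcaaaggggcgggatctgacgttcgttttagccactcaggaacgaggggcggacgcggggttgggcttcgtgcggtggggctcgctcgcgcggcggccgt

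Few members were called for norepinephrine. The additive model called 1 member higher and 1 lower with norepinephrine, where 5.04% of all genes were called higher and 7.29% lower. Sdf2l1, a partner of ER J-domain proteins, rose. It had 47.4 CPM with norepinephrine against 41.6 CPM with vehicle in shFAK, and 61.8 CPM with norepinephrine against 47.1 CPM with vehicle in shNC, with an additive estimate of 0.29 (SE 0.088, adjusted p = 0.0139) in edgeR. Dnajc13 fell. It had 114 CPM with norepinephrine against 131 CPM with vehicle in shFAK, and 86.4 CPM with norepinephrine against 127 CPM with vehicle in shNC, an additive estimate of -0.38 (SE 0.089, adjusted p = 0.00082). After the length and GC correction neither was called (adjusted p = 0.396 for Sdf2l1 and 0.157 for Dnajc13, edgeR). In that fit no member was called and 16 had an unadjusted p under 0.05, where 1.56% of all genes were called higher and 1.63% lower. DESeq2's Wald test without the correction called no member and had 7 with an unadjusted p under 0.05, where 0.227% of all genes were called higher and 0.68% lower. A count of 0 among 98 members is close to these shares. No member reached a 2-fold change in either line, where 0.874% of all genes did in shFAK and 0.858% in shNC.

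Intervals that left out 0 were fewer in shFAK than in shNC, among members and among all genes alike. These intervals cover counting error only. In shFAK 8 members had an interval above 0 and 16 below, where all genes had 10.4% above and 12.3% below. In shNC 35 members had an interval above 0 and 22 below, against 21.7% and 22.8% of all genes. In both lines, 5 members were above 0 and 11 below, against 6.95% and 9.95% of all genes. Hsp90aa1 was among the 11, with 1376 CPM with norepinephrine against 1588 CPM with vehicle in shFAK, and 1515 CPM with norepinephrine against 1741 CPM with vehicle in shNC. Its ratios were -0.21 in shFAK (-0.23 to -0.18) and -0.20 in shNC (-0.23 to -0.18), nearly equal in the 2 lines. Hsph1 was alike, with ratios of -0.23 in shFAK and -0.24 in shNC, and so was Hspd1, with -0.093 in shFAK and -0.10 in shNC.

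Short and long members moved apart in shNC. Of the 5 prefoldin genes 1 had an interval above 0 in shFAK, against 5 in shNC. Pfdn5 had 52.6 CPM with norepinephrine against 53.6 CPM with vehicle in shFAK, but 75.5 CPM with norepinephrine against 58.3 CPM with vehicle in shNC. Hspb1 had 788 CPM with norepinephrine against 794 CPM with vehicle in shFAK, and 1085 CPM with norepinephrine against 893 CPM with vehicle in shNC. Over the 98 members the log2 ratio with norepinephrine had a Spearman correlation with deposited gene length of -0.37 in shFAK and -0.61 in shNC, where all 12351 genes had -0.29 in shFAK and -0.49 in shNC. Genes are not independent points, so no p is given. The hairpin ratios ran the other way with length, at 0.50 with norepinephrine and 0.29 with vehicle over members, and 0.47 and 0.32 over all genes. After the correction, the norepinephrine ratio of Hspb1 in shNC was -0.027, and the ratios of Pfdn5 were -0.11 in shFAK and 0.18 in shNC.

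**Figure D4:**
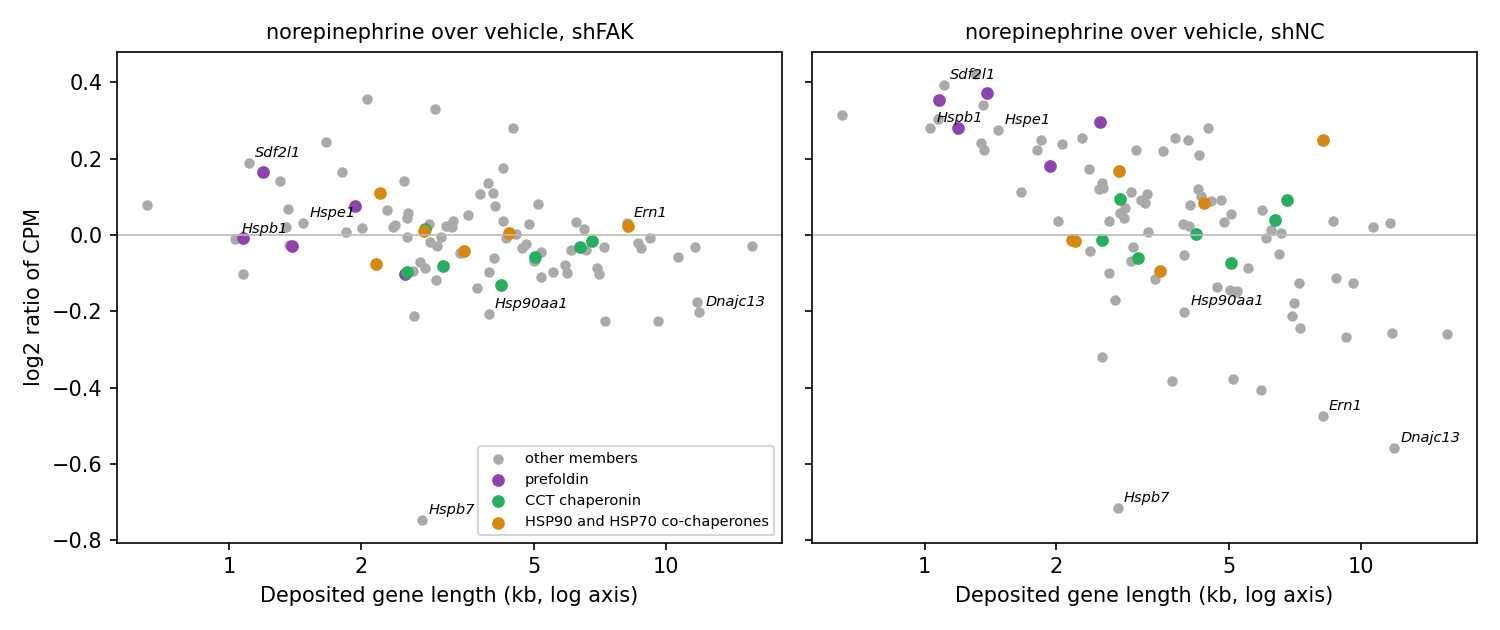
Log2 ratio of CPM, norepinephrine over vehicle, against deposited gene length (kb, log axis) for the 98 kept members, in shFAK (left) and shNC (right). In shNC the short prefoldin genes and Hspb1 lie above 0 and the long Ern1 and Dnajc13 below it; in shFAK most members lie within a narrow band around 0.

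The difference between the lines' responses was measured as the shFAK ratio minus the shNC ratio, with a 99% counting interval. No member differed by 2-fold, where 0.785% of all genes did. The interval lay above 0 for 7 members and below 0 for 26, against 11.9% and 11.1% of all genes. After the length and GC correction 9 lay above and 22 below, where all genes had 7.17% and 9.51%, and 19 of those below were common to both settings. With library size alone 15 lay above and 14 below, where all genes had 16.8% and 7.53%, so the split of members to the lower side depends on the scaling. Below 0 were 5 of 7 CCT subunits, 3 of 5 prefoldin subunits and 7 of 13 ER chaperones. With the length and GC correction the counts were 3 for CCT, 3 for prefoldin and 5 for ER chaperones. Pfdn5 differed by -0.40 (-0.59 to -0.21), Hspb1 by -0.29 (-0.34 to -0.24), Hspe1 by -0.24 (-0.31 to -0.18) and Cdc37 by -0.23 (-0.30 to -0.15). After the correction these were -0.29 (-0.48 to -0.10), -0.21 (-0.25 to -0.16), -0.13 (-0.19 to -0.064) and -0.33 (-0.40 to -0.26). In all 4 genes shNC with norepinephrine was the highest library, and the shFAK libraries stood close to each other.

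Above 0 were Ern1, Dnajc27, Dnajc13, Hspa13, Ptges3, Canx and Hyou1. Ern1 had 71.8 CPM with norepinephrine against 70.2 CPM with vehicle in shFAK, and 43.3 CPM with norepinephrine against 60.1 CPM with vehicle in shNC, a difference of 0.51 (0.32 to 0.69), or 0.40 (0.21 to 0.59) after the correction. Dnajc27, a small GTPase with a J domain, had 38.3 CPM with norepinephrine against 36.2 CPM with vehicle in shFAK, and 28.9 CPM with norepinephrine against 37.5 CPM with vehicle in shNC, a difference of 0.46 (0.21 to 0.70). For Ern1 and Dnajc27 the norepinephrine library of shNC was the low one. For Ptges3 it was not, as both shNC libraries stood above both shFAK libraries. Because each group is 1 library, a difference of responses and a peculiarity of the shNC norepinephrine library cannot be told apart.

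Other genes of these pathways were counted from lists by symbol, beside shares over all genes of 16.2% lower and 19.5% higher, or 15.7% and 15.4% after the correction. Of 22 kept cytosolic co-chaperones outside the set, 8 fell and 1 rose in shFAK, with the same counts after the correction. Ruvbl1, an ATPase of the R2TP assembly complex, had 131 CPM with norepinephrine and 126 CPM with vehicle in shFAK, against 176 CPM with norepinephrine and 165 CPM with vehicle in shNC. Pih1d1, a subunit of that complex, had ratios of -0.45 with norepinephrine and -0.29 with vehicle, and Nudc, a co-chaperone of HSP90, of -0.48 with norepinephrine and -0.25 with vehicle. The 1 that rose was Cdc37l1, a CDC37 relative, with 99.6 CPM with norepinephrine and 107 CPM with vehicle in shFAK, against 69.2 CPM with norepinephrine and 80.4 CPM with vehicle in shNC, opposite to Cdc37. Of 12 CCT and prefoldin partners 4 fell and 8 were not called, with 2 left after the correction, and the tubulin cofactor Tbcc led with ratios of -0.44 with norepinephrine and -0.42 with vehicle. Of 14 mitochondrial proteostasis genes 5 fell and 9 were not called, with 3 left after the correction. Htra2, a protease of the intermembrane space, had ratios of -0.35 with norepinephrine and -0.27 with vehicle.

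ER folding and degradation genes went in both directions. Of 46 kept, 11 fell and 9 rose, or 8 and 8 after the correction, which is close to the shares over all genes just given. Those that rose included Edem3, a mannosidase of ER-associated degradation, with 54.5 CPM with norepinephrine and 59.1 CPM with vehicle in shFAK, against 34.8 CPM with norepinephrine and 47.6 CPM with vehicle in shNC. Uggt1, the glucosyltransferase that checks glycoprotein folding, had ratios of 0.58 with norepinephrine and 0.34 with vehicle, and Sel1l, of the HRD1 ligase complex, of 0.59 with norepinephrine and 0.29 with vehicle. Those that fell included Txndc12 (ERp18), with 28.4 CPM with norepinephrine and 28.7 CPM with vehicle in shFAK, against 47.7 CPM with norepinephrine and 40.8 CPM with vehicle in shNC, and Sil1, the exchange factor of BiP, with ratios of -0.52 with norepinephrine and -0.41 with vehicle. All 5 of these calls held after the correction.

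Of the 13 members under 1 CPM, Hspb3 and Hspb8 had no count in any library. Hspa1l, a testis HSP70, was just outside the minimum at 0.725 CPM at most, and Dnajc28 at 0.58 CPM. Just inside were Hspa12b at 1.14 CPM and Hspa2 at 1.19 CPM. Neither Hspa12b nor Hspa2 was called, and at 13 to 34 counts a library their intervals are wide: that of Hspa12b with vehicle ran from -2.19 to 0.22.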

How the data were processed

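RNA-seq was made from 4 Myc-CaP cultures, 1 per group. The extraction used Trizol and the library kit was NEBNext Ultra, which keeps no strand information, per the labels' protocols. The authors deposited raw read counts per gene. Build mm10, HISAT2 2.0.5 and featureCounts 1.5.0-p3 are named per the submitters' processing notes. Which annotation release was used, and how strand and multi-mapping reads were treated, is not given in the sources used here; counts of near-identical copies and overlapping genes are uncertain. Reads carried no molecular identifiers, so PCR duplicates were counted as molecules.

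The members, their role groups and the other gene lists were chosen with earlier results of these data known. Genes with a CPM of at least 1 in at least 1 library were kept, 12351 in all. With edgeR 4.0.16 in R 4.3.3, TMM effective sizes were computed. Pair ratios used a prior count of 2 and exact Clopper-Pearson intervals of 99%, and the difference of responses a normal approximation on the log scale. The additive model (hairpin and treatment, no interaction) used the quasi-likelihood test over all kept genes. Its p-values assume the same response in both lines. CPM per kilobase used the length of the principal GENCODE M21 transcript. Near-identical copies (95% identity or more, 200 matching bases or more) were found with minimap2 2.31-r1302.

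Named members were those past 2-fold in any pair, the heat shock factors, ER sensors, HSP90 and main HSP70 genes, all subunits counted, and in each role group up to 4 members with the highest mean CPM or the largest mean ratio at a mean CPM of at least 5. Members beyond that rule were named after their values were seen. The alternatives tried were 3 other scalings (library size alone, upper quartile, and size factors of DESeq2 1.42.0), a CPM minimum of 5 or none, protein-coding genes alone, a spline correction for gene length and transcript GC, omission of copied genes, prior counts of 0.5 and 10, a 1.5-fold threshold, DESeq2's Wald test, robust empirical Bayes, and a test against 1.2-fold. The scripts were tested on simulated data.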

Additional observations from a re-analysis of the deposited data

How the results depend on the processing

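Of the alternative values of the counts and medians given above, 147 stayed within 1.5 times the first count or within the median counting half-width of the first median, and 38 did not. Of 40 alternative medians 3 changed sign, all of norepinephrine in shFAK, where the median of -0.0091 became 0.00047 with library size alone, 0.011 with upper-quartile factors and 0.014 after the correction. No paired analysis was possible because each group is 1 library and the labels give no replicate numbers. For the hairpin, members called higher were 7 with no filter (6.86% of all genes) and 7 with copied genes left out (19.9%). They were 5 with DESeq2's Wald test (7.74%) and 2 against 1.2-fold (6.44%). Members called lower were 23 with library size alone (9.41% of all genes), 19 with DESeq2 (6.18%) and 3 against 1.2-fold (2.85%). The totals called with DESeq2 and against 1.2-fold were 24 and 5, where all genes had 13.9% and 9.29%. For norepinephrine, members called higher were 2 with upper-quartile factors (6.83% of all genes) and 0 with no filter (1.03%). They were also 0 after the correction (1.56%), with DESeq2 (0.227%) and against 1.2-fold (0.34%). Members called lower were 2 with library size alone, a CPM of at least 5, protein-coding genes alone or robust empirical Bayes, where 5.45%, 8.94%, 8.26% and 7.47% of all genes were. They were 0 after the correction (1.63%), DESeq2 (0.68%) or 1.2-fold (0.356%). The total was 1 with no filter (3.48% of all genes) and 0 after the correction (3.19%), DESeq2 (0.907%) or 1.2-fold (0.696%). For the 2-fold rule in the hairpin pairs, the count fell to 0 with norepinephrine under library size alone, a CPM of at least 5, the correction, copied genes left out and a prior count of 10. Of all genes 1.35% to 3.82% passed under these settings. With vehicle it fell to 0 under a CPM of at least 5, copied genes left out and a prior count of 10, where 0.854% to 1.95% of all genes passed. Dnajb13, the 1 member involved, has an overlapping neighbour that counts as a copy. With a 1.5-fold threshold 3 members passed with norepinephrine, 2 higher and 1 lower, where 11.3% of all genes passed. With library size alone, chosen as an alternative for the interval counts after seeing the data, 21 members lay above 0 in both hairpin pairs, the difference of responses lay above 0 for 15 and below 0 for 14, and the members' median with norepinephrine was -0.051. For single genes, 28 of 320 alternative ratios changed sign, 16 of them after the correction. In 4 of the 28 the first ratio had an interval that left out 0: after the correction, Hsp90b1 with norepinephrine in shFAK was at 0.014, Hspb1 with norepinephrine in shNC at -0.027 and Hspb1 between hairpins with vehicle at 0.0091, and with library size alone Hspa5 between hairpins with vehicle was at 0.012. Other than where fewer genes were tested, the cause was not tested. The median 95% counting half-width of a member's log2 ratio was 0.072 to 0.080, so for a member of median depth a smaller difference was within counting error, while the most abundant members had narrower intervals.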

Other observations

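Atf4, the transcription factor of the integrated stress response, had 235 CPM with norepinephrine and 227 CPM with vehicle in shFAK, against 325 CPM with norepinephrine and 292 CPM with vehicle in shNC, an additive estimate of -0.41 (SE 0.087, adjusted p = 2.1e-05) in edgeR's quasi-likelihood fit. Both shFAK libraries were lower, the direction opposite to that of Xbp1 and Ern1. Fkbp2 and Fkbp11, proline isomerases of the ER, had additive norepinephrine estimates of 0.36 (SE 0.091, adjusted p = 0.00206) and 0.33 (SE 0.10, adjusted p = 0.0114) in edgeR, and lost these calls after the length and GC correction (adjusted p = 0.578 for Fkbp2 and 0.210 for Fkbp11). Edem3, Sel1l and Uggt1 fell with norepinephrine in the same fit, with ratios of -0.12 in shFAK and -0.45 in shNC for Edem3, -0.12 in shFAK and -0.42 in shNC for Sel1l and -0.13 in shFAK and -0.36 in shNC for Uggt1, and lost those calls after the correction. These genes were named after their values were seen.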
